A study of Mus musculus with 6 samples.

Results

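The interleukin-1 (IL-1) family was followed in lung endothelial cells (ECs) of mice with breast cancer metastases. The family was taken as 9 genes, the cytokines Il1a, Il1b, Il18 and Il33, the antagonist Il1rn, and the receptor chains Il1r1, Il1rl1, Il1rap and Il18r1. Every probe set that the array annotation assigned to 1 of these symbols alone was included, which gave 15 probe sets for 8 of the 9 genes, out of 45037 probe sets and 18193 named genes in all. No probe set carried the symbol Il1rl1 in the annotation used here, so this gene, the receptor chain for IL-33, was not analysed here. Il1rap was read by 5 probe sets, Il1rn by 3, Il1r1 by 2 and each other gene by 1.

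Animals in both groups were NSG mice, aged 6 to 8 weeks, a strain that lacks T, B and natural killer cells. All had received the lung-selected human breast cancer line MDA-MB-231-LM2 through the tail vein. Control mice were given PBS-liposomes and treated mice clodronate-liposomes, which kill the phagocytes that engulf them, on days 14, 16 and 18, and lungs were taken on day 20. ECs were sorted from whole lungs as CD31-positive cells after removal of cells with hematopoietic, epithelial, fibroblast or tumor cell markers, so ECs inside and outside metastases were pooled. Each group held 3 arrays labelled as biological replicates. The labels do not give the number of mice behind an array, and every array came from a tumor-bearing lung.

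IL-1 family cytokines are alarm signals of injured or infected tissue. IL-1α and IL-1β bind the receptor encoded by Il1r1, IL-33 binds that encoded by Il1rl1, and both receptors need the accessory chain encoded by Il1rap before they can signal through the adaptor MyD88. IL-18 uses a receptor pair of its own, encoded by Il18r1 and Il18rap. IL-33 is stored in the nucleus of endothelial and other barrier cells, while IL-1β is best known as a product of macrophages and monocytes. Genes of the family lie side by side in the mouse genome, with Il1a next to Il1b and with Il1rl1 between Il1rl2 and Il18r1.

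Il33, Il1b and Il1rap were the members with the largest decreases after clodronate-liposome treatment, and the 250 bases before their start sites are shown here so that they can be compared. A window from the RefSeq promoter table (build GRCm38.p6) was found for all 9 members, 16 windows in all because several genes have more than 1 start. Capitals mark the letters TATAAA (gene strand) at any place in the window. They also mark an interferon-stimulated response element (GAAA, any 2 bases, GAAA) or a gamma-activated site (TTCNNNGAA). An NF-kB site (GGG, any 2 bases, TTTCC) or an AP-1 site (TGANTCA) is marked as well. These last 4 were searched on both strands. Myd88, the adaptor gene, is included because its window held an interferon-stimulated response element, so it was picked for this pattern. The windows of Il18bp and Selp, other genes around the family described below, were also searched. The Il18bp window held 0 of these patterns. The Selp window held 1, an AP-1 pattern that began 139 bases before the start.
Il33, first start, chr19:29924863-29925112, plus strand: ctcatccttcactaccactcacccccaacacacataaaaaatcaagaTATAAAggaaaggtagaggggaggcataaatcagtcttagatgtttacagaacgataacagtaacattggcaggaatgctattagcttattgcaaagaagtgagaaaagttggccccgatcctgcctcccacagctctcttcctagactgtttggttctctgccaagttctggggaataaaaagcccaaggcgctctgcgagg
Il33, second start, chr19:29945540-29945789, plus strand: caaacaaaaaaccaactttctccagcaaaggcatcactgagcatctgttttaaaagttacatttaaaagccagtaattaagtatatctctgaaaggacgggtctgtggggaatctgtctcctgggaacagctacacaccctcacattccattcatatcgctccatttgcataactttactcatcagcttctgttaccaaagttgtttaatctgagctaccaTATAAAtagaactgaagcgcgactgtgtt
Il1b, chr2:129371140-129371389, minus strand: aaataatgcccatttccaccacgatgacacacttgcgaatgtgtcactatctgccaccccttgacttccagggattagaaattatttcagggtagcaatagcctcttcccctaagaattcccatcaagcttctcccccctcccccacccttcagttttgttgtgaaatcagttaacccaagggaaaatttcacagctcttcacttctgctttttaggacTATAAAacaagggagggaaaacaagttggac
Il1rap, chr16:26581455-26581704, plus strand: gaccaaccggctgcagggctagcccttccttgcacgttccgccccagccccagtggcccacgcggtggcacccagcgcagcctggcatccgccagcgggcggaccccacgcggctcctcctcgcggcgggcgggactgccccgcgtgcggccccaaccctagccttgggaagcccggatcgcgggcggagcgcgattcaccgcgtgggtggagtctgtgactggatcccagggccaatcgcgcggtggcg
Myd88, chr9:119340019-119340268, minus strand: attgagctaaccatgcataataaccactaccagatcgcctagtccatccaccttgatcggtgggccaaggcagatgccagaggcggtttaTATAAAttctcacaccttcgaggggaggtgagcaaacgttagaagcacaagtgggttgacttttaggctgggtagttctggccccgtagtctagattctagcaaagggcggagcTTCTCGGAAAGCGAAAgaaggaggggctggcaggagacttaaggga

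The windows differed in kind. The pattern TATAAA began 31 bases before the Il1b start, 29 bases before the second Il33 start and 203 bases before the first Il33 start. The Il1rap window held none and was rich in G and C (74.4%, with 30 CpG dinucleotides), against 44.4% and 2 for Il1b and a median of 52.4% over all windows of this length. TATAAA was found in 4 of the 16 member windows and in 7.59% of all 32851 windows. The interferon element was found in 0 of the 16 member windows and in 2.98% of all windows. The gamma-activated site was found in 1 member window, of Il18r1, and in 7.02% of all windows. The NF-kB pattern was found in 1 member window, of Il1rn, and in 1.41% of all windows. The AP-1 pattern was found in 2 member windows, of Il1a and Il1rn, and in 6.75% of all windows. In the Myd88 window the gamma-activated and interferon patterns overlapped and began 46 and 40 bases before the start. A missing pattern means only that these letters were not in these 250 bases.

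The arrays were alike in distribution and were tested as deposited, on the log2 scale. Correlations over all probe sets ranged from 0.985 to 0.991 between arrays. The endothelial genes Pecam1 and Cdh5 stood at 13.25 to 13.70 on every array and differed by 0.07 (SE 0.094) and 0.09 (SE 0.12). None of the 12 pan-endothelial markers passed the test. Hybridization controls read 11.91 and 11.94 on clodronate-liposome replicates 1 and 3 and 12.11 to 12.24 on the other 4 arrays, and controls for 18S ribosomal RNA read 13.01 and 13.00 on those 2 arrays against 12.33 to 12.63. Every difference below is the mean of the clodronate-liposome arrays minus that of the PBS-liposome arrays, and the threshold was an adjusted p of 0.05 over all 45037 probe sets.

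Il33 and Il1b fell. They were the 2 of 15 member probe sets past the threshold (0 were higher), where 0.238% of all probe sets were called lower and 0.0688% higher. The members were chosen with earlier results of these data known, so such shares only describe. At an unadjusted p under 0.05 there were 6 member probe sets, all lower, where 5.27% of all probe sets were lower and 5.53% higher. Il33, the nuclear alarmin, read 9.18, 9.27 and 9.08 on the PBS-liposome arrays and 8.06, 8.34 and 8.44 on the clodronate-liposome arrays. Every treated array lay below every control array, and the gap between the groups exceeded the range within either. The mean fell from 9.18 ± 0.097 to 8.28 ± 0.20 (log2 signal, SD, n = 3 per group), 1.87-fold lower. The log2 difference was -0.90 (SE 0.12, 95% confidence interval -1.19 to -0.61, limma adjusted p = 0.0374). Clodronate-liposome replicate 2, whose controls resembled those of the PBS-liposome arrays, lay between the other 2 treated arrays. Its place differed among the other called genes described below. It was the lowest treated array for Il1b and Myd88, between the others for Il18bp and the highest for Selp. Whether the controls bear on these places was not tested. With any 1 of the 6 arrays left out the difference was -0.98 to -0.79 but no longer passed (adjusted p 0.084 to 0.161).

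Il1b, the secreted cytokine cleaved by caspase-1, read 9.31, 9.29 and 9.27 with PBS-liposomes and 8.61, 8.54 and 8.76 with clodronate-liposomes. The control arrays were nearly identical and all treated arrays were lower. The mean fell from 9.29 ± 0.020 to 8.63 ± 0.11 (SD, n = 3 per group), 1.58-fold lower. The log2 difference was -0.66 (SE 0.097, 95% confidence interval -0.88 to -0.43), and its adjusted p of 0.0499 was just under the threshold. With any 1 array left out the difference was -0.72 to -0.61 and did not pass (adjusted p 0.0964 to 0.173). It did not pass with a trended and robust variance either (adjusted p = 0.0686). With the hybridization controls as a covariate neither Il33 (-0.82, adjusted p = 0.202) nor Il1b (-0.71, adjusted p = 0.191) passed, and with the replicate number as a block their adjusted p was 0.0978 and 0.128.

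Il1rap, the shared accessory chain of the IL-1 and IL-33 receptors, was lower in its 3 brighter probe sets, none of them past the threshold. Probe set 1421843_at read 8.30, 8.09 and 8.10 with PBS-liposomes and 7.55, 7.58 and 7.40 with clodronate-liposomes. Its difference was -0.65 (SE 0.11, 95% confidence interval -0.90 to -0.41, adjusted p = 0.0656), the closest to the threshold among members that did not pass. It passed when arrays were weighted by their quality (-0.68, adjusted p = 0.0392). Probe set 1449585_at read 9.33, 8.81 and 8.81 against 7.86, 8.36 and 8.15. The spread within groups was wider there, and the difference was -0.86 (SE 0.18, 95% confidence interval -1.28 to -0.44, adjusted p = 0.131). Probe set 1421844_at read 10.40, 10.30 and 10.21 against values from 9.97 to 10.01, with a smaller difference of -0.31 (SE 0.095, 95% confidence interval -0.53 to -0.09, adjusted p = 0.274). In all 3 probe sets the groups did not overlap. The remaining 2 probe sets of the gene, dim ones that read 5.69 to 6.67 on all arrays, differed by -0.01 and -0.10 with overlapping groups. The annotation did not say which transcript forms each probe set detects.

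**Figure D1:**
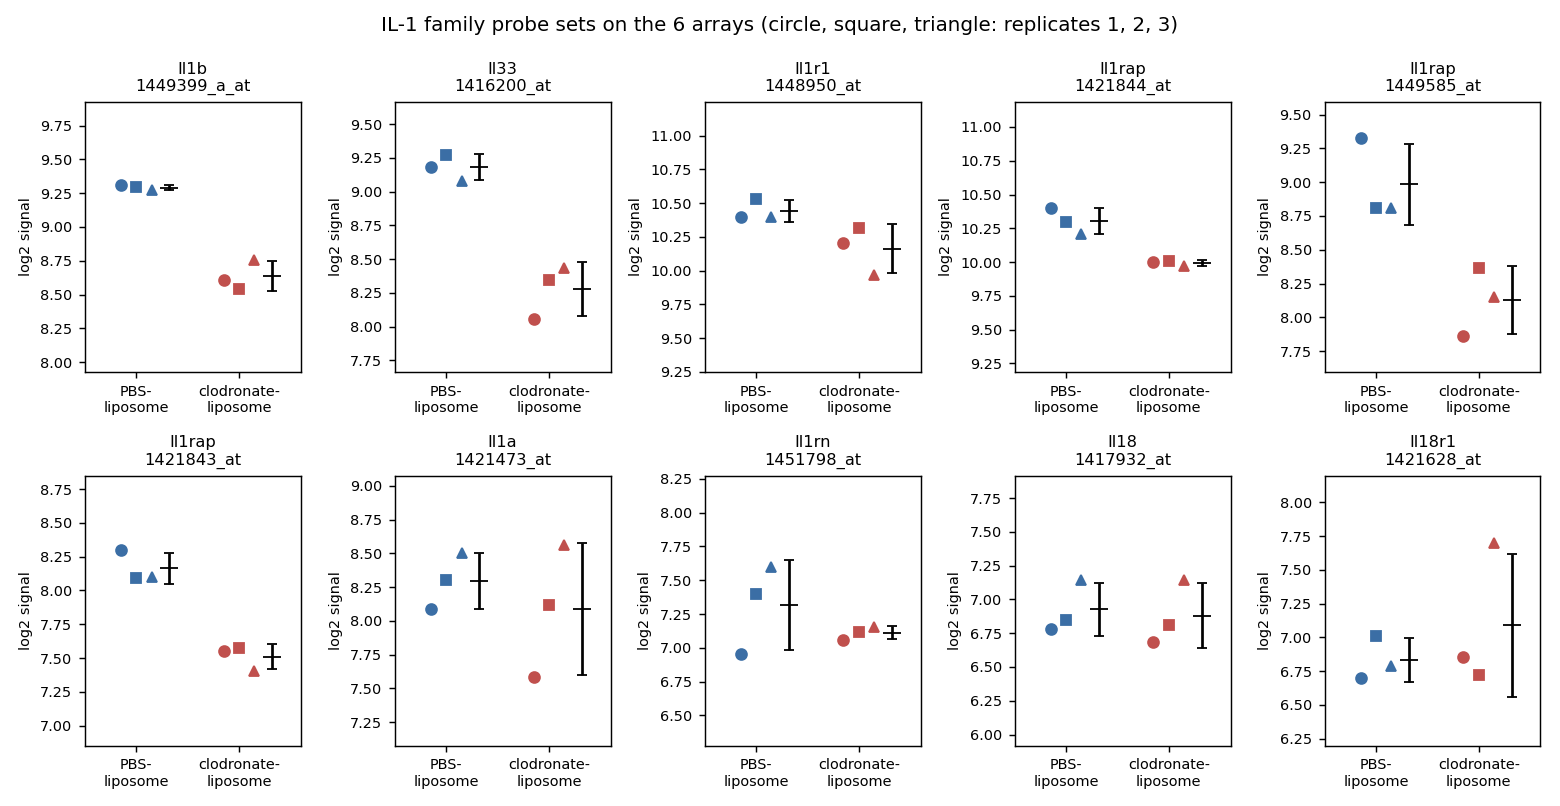
Log2 signal (vertical axes, each spanning 2 log2 units) of 10 IL-1 family probe sets on the 3 PBS-liposome (blue) and 3 clodronate-liposome (red) arrays, with symbols for the replicates and black marks for the mean ± SD. The groups did not overlap for Il1b, Il33, Il1r1 and 3 probe sets of Il1rap, and overlapped for Il1a, Il1rn, Il18 and Il18r1.

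Il1r1, the signaling receptor for IL-1α and IL-1β, read 10.39, 10.53 and 10.40 with PBS-liposomes and 10.20, 10.32 and 9.97 with clodronate-liposomes. All treated arrays were lower, by a small margin. The difference was -0.28 (SE 0.12, 95% confidence interval -0.55 to -0.01) and did not pass (adjusted p = 0.449). Its other probe set was among the dimmest on the array, at 5.77 to 5.89, and differed by -0.0035. Il18r1, the ligand-binding chain of the IL-18 receptor, was the only member with a difference above 0, at 0.26 (SE 0.24, adjusted p = 0.786). It read 6.70, 7.01 and 6.79 against 6.85, 6.72 and 7.70, so the higher mean came from clodronate-liposome replicate 3, and without it the difference was -0.05.

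The remaining cytokines and the antagonist showed differences within the spread of the arrays. Il1a, which encodes the membrane-bound and released IL-1α, read 8.09, 8.30 and 8.50 with PBS-liposomes and 7.59, 8.12 and 8.56 with clodronate-liposomes. The treated arrays spanned almost 1 log2 unit and overlapped the controls. The difference was -0.21 (SE 0.23, 95% confidence interval -0.75 to 0.33, adjusted p = 0.830), and 0.04 without clodronate-liposome replicate 1. Il18 read 6.78, 6.85 and 7.15 against 6.69, 6.81 and 7.15, a difference of -0.05 (SE 0.15, 95% confidence interval -0.40 to 0.31, adjusted p = 0.953). Il1rn, which encodes the IL-1 receptor antagonist, differed by -0.21, -0.17 and -0.23 in its 3 probe sets (adjusted p 0.696 to 0.924). Probe set 1423017_a_at of this gene read 8.03 on PBS-liposome replicate 2 and about 1 log2 unit lower or more on each of the other 5 arrays, and without that replicate its difference was 0.33. The intervals of Il1a and of this Il1rn probe set (-1.04 to 0.70) included decreases as large as that of Il1b.

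Across the 15 member probe sets 14 differences were below 0 and 1 above, with a median of -0.21 against -0.0001 for all probe sets tested. The groups did not overlap for 6 of them, all lower, where 8.04% of all probe sets were separated in this way with lower and 7.97% with higher treated arrays. Taken by the brightest probe set of each gene, 4 of the 8 measured members were separated, all lower, against 8.75% of all genes with lower and 7.49% with higher treated arrays. The 6 probe sets were Il33, Il1b, the 3 brighter Il1rap probe sets and the brighter one of Il1r1. By mean signal 5 of the 6 lay above the median of all probe sets, and the other, 1421843_at, at the 45.0th percentile. In the dimmest 25% lay 7 member probe sets, those of Il18 and Il18r1 and the dimmer ones of Il1rn, Il1r1 and Il1rap, whose differences ranged from -0.23 to 0.26. Signal on these arrays depends on the probes as well as on the transcript, so no order of abundance between genes was read from the levels. A probe set this dim can miss a change, and for Il18 and Il18r1 there was no brighter one.

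**Figure D2:**
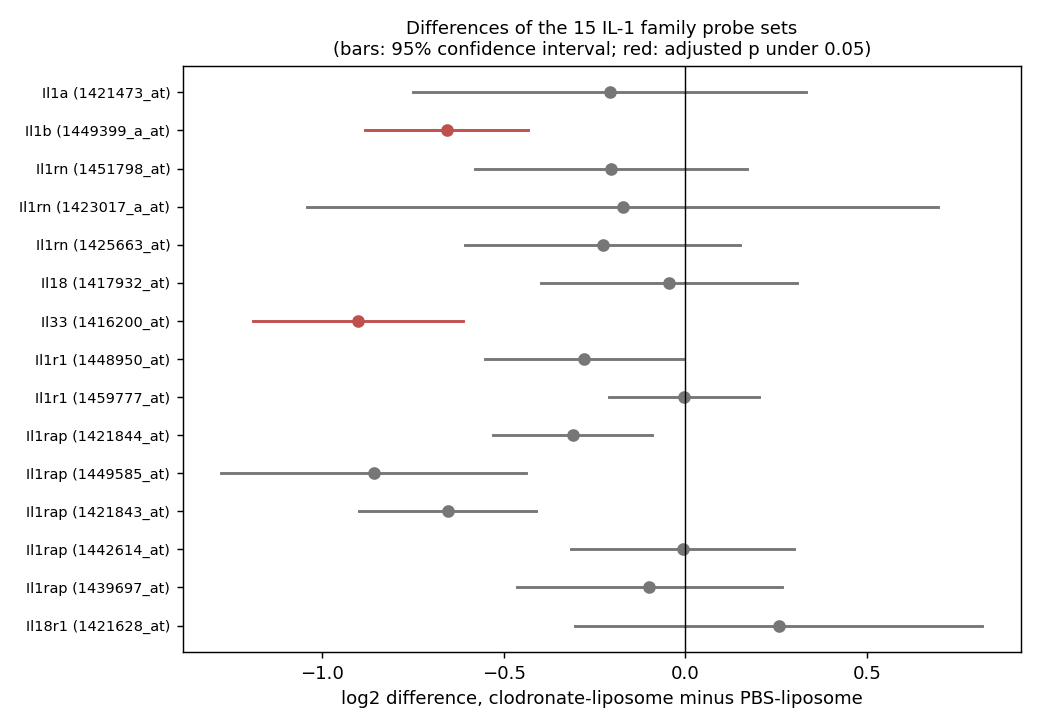
Log2 difference, clodronate-liposome minus PBS-liposome (horizontal axis), of the 15 IL-1 family probe sets, with bars for the 95% confidence interval and red for adjusted p under 0.05. Il33 (-0.90) and Il1b (-0.66) passed, and 3 of the 5 Il1rap probe sets had intervals below 0 without passing.

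The gene whose brightest probe set tracked Il33 most closely over the 6 arrays was Mx1, an interferon-induced antiviral GTPase (Pearson r = 0.997), which differed by -1.97 (adjusted p = 0.0155). Next came Kdm2a, a histone demethylase gene (r = 0.996, difference -0.41, adjusted p = 0.150), and Tmem106a (r = 0.996, difference -0.53, adjusted p = 0.116). Irf7, an interferon-induced transcription factor gene given for reference, differed by -2.10 (adjusted p = 0.00687). Mx1, Kdm2a and Tmem106a are the 3 highest of 18192 genes, and with 3 arrays per group much of such a correlation is the difference between the groups.

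Genes that surround the family were read from 4 lists, in which 52 genes were measured by their brightest probe sets. Of these, 3 were lower past the threshold and 0 higher, where 0.346% of all 18193 genes were called lower and 0.0879% higher. The 3 were Il18bp, Myd88 and Selp. The lists were chosen with earlier results of these data known, so the shares only describe and do not test an excess. With the replicate block (adjusted p 0.0507, 0.101 and 0.087) or the hybridization covariate (0.131, 0.162 and 0.191) none of these 3 passed, though each was lower by a similar amount.

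Among the other ligands, receptors and decoys 1 of 12 fell, and 0 rose. Il18bp, the secreted protein that binds and neutralizes IL-18, read 10.19, 10.02 and 10.20 with PBS-liposomes and 8.86, 8.88 and 9.12 with clodronate-liposomes. The groups lay far apart compared with the range within either. The difference was -1.18 (SE 0.11, 95% confidence interval -1.44 to -0.92, adjusted p = 0.015), 2.27-fold lower, and it passed without clodronate-liposome replicate 2 or 3 (adjusted p = 0.0454 and 0.0322) but not without any of the other 4 arrays (0.0546 to 0.079). Il18 itself, the ligand that this protein holds back, differed by -0.05. The difference between these 2 changes was not tested. Il1rl2, the IL-36 receptor, was 0.46 higher (adjusted p = 0.302) in a probe set whose groups did not overlap, while its dimmer probe set differed by -0.14. Il18rap, the second chain of the IL-18 receptor, differed by -0.15 (adjusted p = 0.661). Il1f10, which encodes the cytokine IL-38, differed by 0.18 (adjusted p = 0.670), and Il1rapl2, a receptor-like gene of the family, by 0.12 (adjusted p = 0.738), both with overlapping groups. The list median was -0.02, against -0.0031 over all genes.

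Among inflammasome and processing genes 0 of 6 passed (limma; 1 at an unadjusted p under 0.05). Casp4, the mouse caspase-11 gene whose product responds to intracellular lipopolysaccharide, had the largest difference, -0.62 (SE 0.14, adjusted p = 0.144). It read 11.57, 11.58 and 11.50 against 10.75, 11.22 and 10.83, without overlap. Casp1, whose product cleaves IL-1β and IL-18 precursors, differed by 0.06 (SE 0.12, 95% confidence interval -0.21 to 0.32), the sensor Nlrp3 by 0.10, the adaptor Pycard by -0.12, and Gsdmd, the pore-forming gasdermin D, by 0.06.

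Of 15 receptor-proximal signaling genes 1 fell and 0 rose. Myd88 read 11.29, 11.20 and 11.28 with PBS-liposomes and 10.62, 10.55 and 10.60 with clodronate-liposomes. Within each group the arrays lay close together, and the difference was -0.67 (SE 0.089, 95% confidence interval -0.87 to -0.46, adjusted p = 0.0343), 1.59-fold lower. With any 1 array left out it was -0.69 to -0.65 and did not pass (adjusted p 0.0805 to 0.145). Irak3, which encodes a kinase-like inhibitor of the pathway, differed by -0.42 (SE 0.11, adjusted p = 0.186) with separated groups, while its other probe set differed by -0.31 (adjusted p = 0.556) with overlapping groups. Tab3 and Map3k7, parts of the TAK1 kinase complex, differed by -0.26 and -0.20, and the kinase gene Irak1 by -0.16. The list median was -0.05.

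Of 20 genes that IL-1 is known to induce in endothelium 1 fell and 0 rose. Selp, the adhesion receptor P-selectin, read 11.73, 11.75 and 11.74 against 10.60, 11.04 and 10.48 (difference -1.03, adjusted p = 0.0428), and its other 2 probe sets passed as well, at -0.96 (adjusted p = 0.0312) and -0.85 (adjusted p = 0.034). Without any 1 array the difference was -1.20 to -0.92, and the call held only without clodronate-liposome replicate 2 (adjusted p = 0.0289). Sele, the related E-selectin gene, differed by -0.62 (SE 0.20, adjusted p = 0.298). The chemokine genes Ccl7 and Ccl2 differed by -0.34 and -0.29, and the cytokine gene Lif by 0.30, none past the threshold. The list was mixed in sign, with 13 of 20 differences below 0 and a median of -0.12. These genes also respond to other stimuli, so the list does not single out IL-1.

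**Figure D3:**
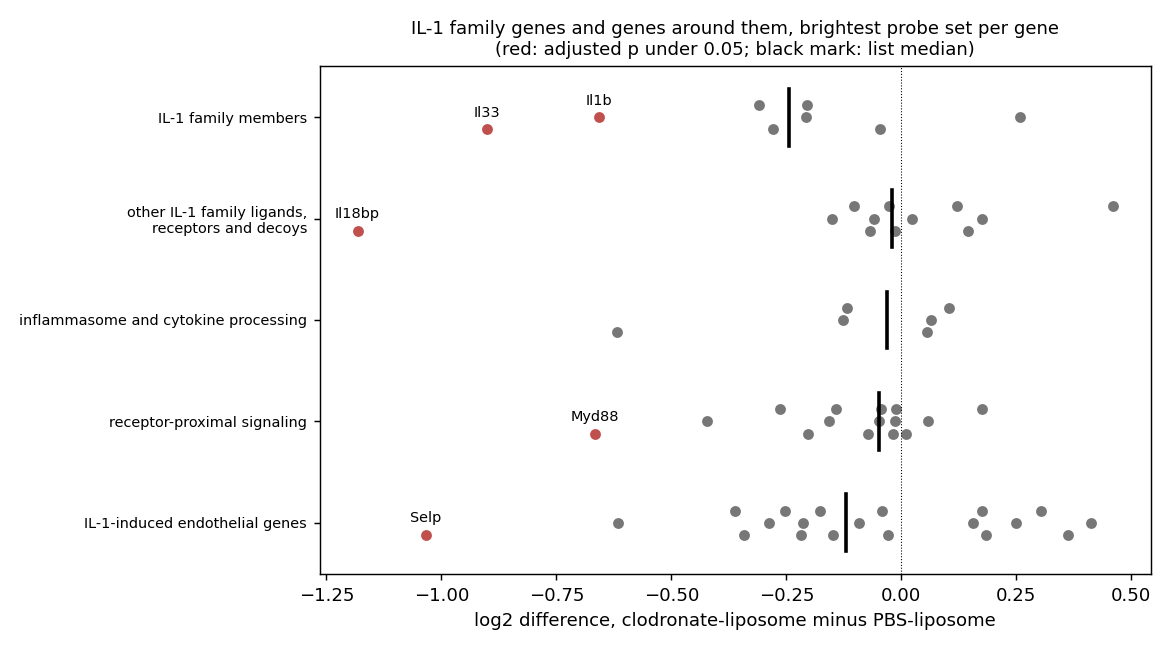
Log2 difference, clodronate-liposome minus PBS-liposome (horizontal axis), of IL-1 family members and of genes in 4 surrounding lists, with a dot per gene, red for adjusted p under 0.05 and a black mark for the list median. Il33, Il1b, Il18bp, Myd88 and Selp are the called genes, and most other genes lie within 0.5 of 0.

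Macrophages, neutrophils, platelets, fibroblasts and epithelial cells can also carry IL-1 family transcripts. A bulk sample cannot tell fewer cells of a type from less RNA per cell. Among pan-leukocyte markers 0 of 8 passed (limma, 3 at an unadjusted p under 0.05), yet all 8 differences were below 0. Their median was -0.25, close to the -0.24 of the family genes taken by their brightest probe sets. The groups did not overlap for 4 of the 8, all lower, the same count as for the 8 measured members. Over all genes 8.75% were separated with lower treated arrays. Ptprc, the CD45 gene used to exclude leukocytes, read 8.48, 8.71 and 8.57 against 7.66, 8.22 and 8.13 (difference -0.58, adjusted p = 0.217). The summed linear signal of the list was 4674 to 6071 with PBS-liposomes and 4434 to 4747 with clodronate-liposomes. Such a sum weighs bright genes most, and Lcp1 was the brightest here, with means of 11.64 and 11.56. Among macrophage markers 0 of 13 passed (limma, 3 at an unadjusted p under 0.05), 10 were below 0 and the median was -0.11. The groups did not overlap for 4 of the 13, all lower, which were Csf1r, Msr1, C1qc and Cd68. The summed signals overlapped, at 8769 to 10178 and 8842 to 9623. Mertk, the brightest of these markers, weighed most in them, with means of 12.08 and 12.15. Csf1r, the receptor for macrophage colony-stimulating factor, had the largest decrease of the 13, -0.65 (adjusted p = 0.101), a size close to that of Il1b. At the other end Fcgr1 differed by 0.32 (adjusted p = 0.664), and Adgre1 differed by -0.17 (adjusted p = 0.856). Platelet markers had 0 of 5 past the threshold (limma, 2 at an unadjusted p under 0.05) and a median of -0.44. The groups did not overlap for 3 of the 5, all lower, Itgb3 (-0.60), Itga2b (-0.56) and Ppbp (-0.44). Gp9 (-0.08) and Pf4 (0.13) had overlapping groups. Summed platelet signals were 3419 to 3949 against 2461 to 3417, apart by a very narrow margin. Neutrophil markers had 0 of 8 past the threshold (0 at an unadjusted p under 0.05), a median of 0.01 and summed signals of 1577 to 1913 and 1557 to 2287. Fibroblast and mural markers had 0 of 11 past the threshold (1 at an unadjusted p under 0.05), a median of -0.19 and summed signals of 11695 to 12085 and 9539 to 11818. Epithelial markers had a median of 0.04 and uneven summed signals of 3994 to 6077 and 4593 to 9344. Sftpc of that list read 10.14 to 11.38 with PBS-liposomes and 8.49 to 12.78 with clodronate-liposomes. Among lymphatic endothelial, alveolar macrophage, mast cell, lymphocyte, epithelial and mesothelial markers 0 passed (limma; 4 at an unadjusted p under 0.05), and the list medians ran from -0.06 to 0.49. The highest, of the mesothelial list, rested on clodronate-liposome replicate 3, where the summed signal of its 6 markers was 3144 against 959 and 1275 on the other treated arrays and 1057 to 1390 with PBS-liposomes. The same array held the high Il18r1 reading, and the part of these markers in it was not tested. Array signals have a background floor, so no marker read 0, and the lowest reading among the pan-leukocyte markers was 6.32. The part of these markers in the decreases of Il33, Il1b and Il1rap was not tested.

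**Figure D4:**
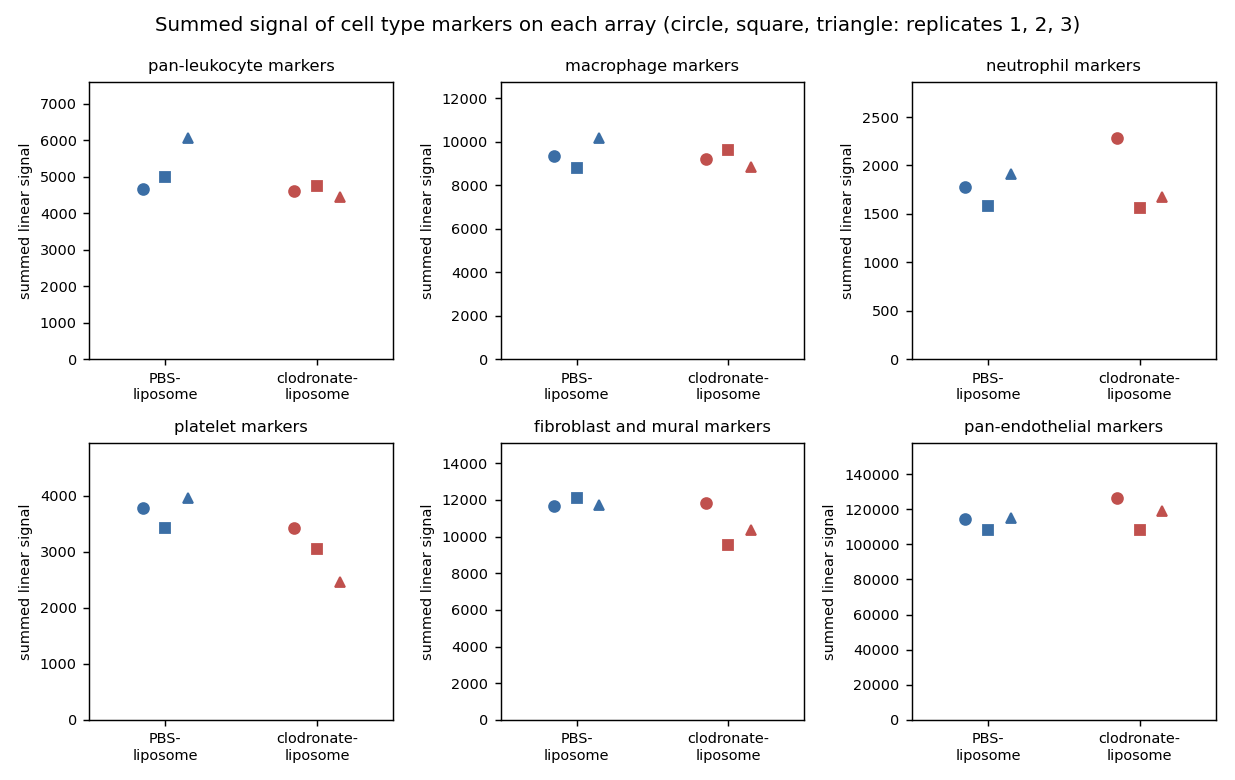
Summed linear signal (vertical axes from 0, arbitrary array units) of 6 marker lists on each array, blue for PBS-liposome and red for clodronate-liposome, with symbols for the replicates. Pan-leukocyte sums were 4674 to 6071 and 4434 to 4747, macrophage, neutrophil and pan-endothelial sums overlapped, and platelet sums were 3419 to 3949 and 2461 to 3417.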

How the data were processed

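RNA from sorted lung ECs was measured on 6 Affymetrix mouse arrays, 3 per group, grouped by the liposome treatment in the sample titles. The deposited values were log2 signals per probe set, which the authors obtained by robust multiarray averaging of the raw arrays. Sorted values differed by at most 0.0555 between arrays, and array medians were 8.13. Of 45101 rows, 64 control probe sets were set aside. The platform annotation gave 34945 of the rest 1 symbol, 932 several and 9160 none. For 34741 of the first the gene identifier was found in the RefSeq table of GRCm38.p6, and 0 symbols changed.

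Groups were compared with limma 3.58.1 under R 4.3.3, by a two-sided moderated test without covariates (4 residual and 3.90 prior degrees of freedom), following the empirical Bayes test in the study's methods, with Benjamini-Hochberg adjustment over 45037 probe sets. The steps were tested on simulated data. Genes outside the family were read from their brightest probe set on average. All member probe sets were described, and, from each surrounding list, the genes past the threshold and the 5 with the smallest p. Also named were the 3 genes most correlated with the member of smallest p, and Pecam1, Cdh5, Ptprc, Adgre1, Csf1r and Irf7 for reference. Intervals are 95%, and the number of arrays limits precision. The p-values measure the spread between these arrays.

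Members and lists were chosen with earlier results of these data known. Alternatives covered normalization, centring, low-signal filtering, the replicate block, variance models, array weights, a hybridization covariate, choice of probe set and leaving out arrays.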

Additional observations from a re-analysis of the deposited data

How the results depend on the processing

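Of 678 values recomputed under alternatives, 574 kept their direction and their side of the threshold or, for a count or median, stayed close to the value reported. Quantile normalization once more and median centring left the 2 called member probe sets, 138 called probe sets and 3 called pathway genes unchanged. The deposited arrays already had nearly equal distributions, so these 2 settings could change little. Each gave 49 of the 574 values. All probe sets called rose to 244 with the low-signal filter, 248 with a trended and robust variance (1 member probe set, Il33) and 234 with array weights. With the replicate number as a block 0 member probe sets, 0 of all probe sets and 0 pathway genes passed (limma, 6, 5033 and 10 at an unadjusted p under 0.05, smallest adjusted p = 0.0507). The labels do not say that a number pairs arrays, and deviations of same-numbered arrays correlated at only 0.0361 to 0.0751. All 6 arrays correlated best with their own number, a weak hint from the data only. Each pair counts from both sides there, and deviations were centred within groups of 3, so these 6 matches are not independent. With hybridization controls as a covariate 0, 0 and 0 passed (5, 4710 and 11 at an unadjusted p under 0.05), as without empirical Bayes moderation (0, 0 and 0; 5, 4416 and 7). With 1 array left out member calls ranged from 0 to 0 (5 to 6 at an unadjusted p under 0.05), all calls from 6 to 73 and pathway calls from 0 to 2. Fewer arrays enter those fits, and for the other settings the cause was not tested.

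Differences near 0 changed sign. With array weights Il18 was 0.0281. With the hybridization covariate Il1rn 1423017_a_at was 0.21, Il1r1 1459777_at 0.0010, Gsdmd -0.13, Pecam1 -0.0019 and Cdh5 -0.0568. With 1 array left out the ranges were -0.43 to 0.33 for Il1rn 1423017_a_at, -0.0392 to 0.0194 for Il1r1 1459777_at, -0.20 to 0.0293 for Il1rap 1439697_at, -0.094 to 0.0929 for Il1rap 1442614_at, -0.18 to 0.0645 for Il18, -0.45 to 0.0431 for Il1a, -0.0455 to 0.44 for Il18r1, -0.0194 to 0.26 for Nlrp3, -0.0331 to 0.17 for Gsdmd, -0.0172 to 0.14 for Casp1 and -0.38 to 0.0784 for Adgre1. Il33, Il1b, the 3 brighter Il1rap probe sets, Il1r1 1448950_at, Il18bp, Myd88 and Selp were lower in every setting that gave a value. Low signal limits what the Il18 and Il18r1 probe sets can show.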
